A study of Mus musculus with 6 samples.

Results

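The genes described here are the MHC class II genes of the mouse and Ciita: H2-Aa, H2-Ab1, H2-Eb1, Cd74, Ciita, H2-DMa, H2-DMb1, H2-DMb2, H2-Oa and H2-Ob. They were chosen by name, and all 10 were found among the 32285 genes of the deposited matrices. Their counts were compared between control mice and mice whose kidneys were acutely injured through rhabdomyolysis (destruction of skeletal muscle fibres), within macrophages, monocytes, dendritic cells, B cells and T cells of the kidney.

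All mice were C57BL/6J and 8 weeks old, and the groups shared strain, age and preparation. Kidneys were digested with collagenase and DNase, and viable leukocytes, recognised by CD45 on their surface, were sorted for droplet-based 3′ single-cell RNA sequencing. Each group had 3 libraries. The agent that induced the injury and the time after it are not given in the sources used here, and nothing states that each library had its own animal, so p-values measure how libraries vary, which may be technical only. Fewer transcripts in a gate can stand for less RNA per cell or for a different mix of cells inside the gate, and these cannot be told apart in summed counts.

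MHC class II molecules display peptides from the endosomes of a cell to CD4 T cells. In C57BL/6 mice the displayed molecule is I-A, whose alpha chain is encoded by H2-Aa and whose beta chain by H2-Ab1, while H2-Eb1 encodes the beta chain of I-E, whose alpha chain this strain lacks. The invariant chain, encoded by Cd74, fills the groove of new molecules until endosomal proteases cut it away, H2-DM (H2-DMa with H2-DMb1 or H2-DMb2) then loads peptide, and H2-O (H2-Oa with H2-Ob) holds H2-DM back. Ciita encodes the class II transactivator, a coactivator that binds no DNA itself and is recruited to these promoters by the factors RFX, CREB and NF-Y, which sit on neighbouring boxes called X, X2 and Y.

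The box letters are shown because Ciita acts through the factors bound there. RefSeq promoter windows (GRCm38.p6, the assembly of mm10, 250 bases before the start of transcription) were matched by symbol for H2-Aa, H2-Eb1, H2-DMa, H2-DMb1, H2-DMb2, H2-Oa and H2-Ob, while H2-Ab1 and Ciita have no entry in the table. The letters TGATTGG, the Y box with its reversed CCAAT, were found in 6 of these 7 genes, each time on the strand of the gene. In each of the 6, the letters AAC, which lie within many X boxes and do not mark their edge, began 26 to 29 bases before them. The stretches below run 5′ to 3′ on the strand of the gene, end before the start of transcription, and have the AAC and TGATTGG letters in capitals. H2-Oa holds a second AAC within the range searched.
H2-Aa, chr17:34287853-34287918, minus strand: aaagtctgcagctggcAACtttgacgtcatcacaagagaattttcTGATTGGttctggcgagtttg
H2-Eb1, chr17:34305762-34305826, plus strand: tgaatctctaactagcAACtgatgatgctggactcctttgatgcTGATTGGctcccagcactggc
H2-DMb1, chr17:34153083-34153148, plus strand: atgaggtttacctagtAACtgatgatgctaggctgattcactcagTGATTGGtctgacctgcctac
H2-DMb2, chr17:34145112-34145177, plus strand: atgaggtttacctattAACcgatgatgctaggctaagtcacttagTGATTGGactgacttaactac
H2-Oa, chr17:34092289-34092354, plus strand: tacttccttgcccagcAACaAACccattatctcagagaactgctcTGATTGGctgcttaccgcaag
H2-Ob, chr17:34238804-34238866, plus strand: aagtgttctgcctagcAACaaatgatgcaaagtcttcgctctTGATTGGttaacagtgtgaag

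Counting either strand, TGATTGG alone was in 7.23% of all 32851 RefSeq promoter windows of this length, and the pair with AAC starting 24 to 32 bases before it on the same strand was in 0.779%. The TGATTGG letters began 45 to 92 bases before the start of transcription in the 6 genes. Neither of the 2 windows of H2-DMa held them. Both windows lie inside the annotated gene (chr17:34119693-34139101), and the bases before the gene were not searched, so the absence says nothing about them. The letters and the spacing were chosen with these promoters in view, so the matches are a description.

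Called cells numbered 2283 to 3489 in the control libraries and 1021 to 1541 in the rhabdomyolysis libraries, from 10816727 to 22656666 gene counts per library, where a count is a unique molecular identifier (UMI), 1 captured transcript. Cells were gated by UMIs of marker genes, none of them among the 10. The macrophage gate (C1qa, C1qb, C1qc, Adgre1 and others) held 1576, 1367 and 931 control and 373, 541 and 369 rhabdomyolysis cells, and its 8 markers summed to 22264 to 25099 UMIs per 1000000 in control and 19640.3 to 24281 in rhabdomyolysis libraries, a level that the gate itself requires. With barcodes poor in Malat1, a nuclear RNA, kept instead of left out, the gate held 1938, 1780 and 1467 control and 794, 937 and 2249 rhabdomyolysis barcodes, and 9 of the 10 genes were called as lower in it. Of the called cells, 81.9% to 82.9% fell in a gate in control and 60.4% to 63.4% in rhabdomyolysis libraries. Pairs of libraries shared 0 to 4 cell barcodes.

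In macrophages, the class II genes fell together. In the edgeR quasi-likelihood test on summed counts, 9 of the 10 genes fell after rhabdomyolysis at an adjusted p under 0.05, and none rose. Among all 9846 genes tested, 18.7% fell. The median log2 change of the 10 was -2.94, against -0.04 over all genes tested.

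H2-Aa, the I-A alpha chain, stood at 14830.3, 15071 and 15384 UMIs per 1000000 of the gate (CPM) in the 3 control macrophage sums and at 729.6, 1289 and 752 CPM in the rhabdomyolysis sums. H2-Ab1, its beta chain, stood at 17675, 17314 and 17312 CPM in control and 936, 1468 and 1001 CPM in rhabdomyolysis. H2-Eb1 stood at 20338, 20207 and 21322 CPM in control and at 861, 1606 and 877 CPM in rhabdomyolysis. For these 3 chains the control libraries lay close to each other and far above every rhabdomyolysis library, of which replicate 2 was the highest. Free RNA of the droplets could account for means of 19.8%, 19.9% and 25.6% of their rhabdomyolysis counts, against 4.89%, 4.73% and 6.04% in control. The log2 changes were -3.96 ± 0.25 (SE) for H2-Aa, -3.87 ± 0.21 for H2-Ab1 and -4.14 ± 0.28 for H2-Eb1, or 15.5, 14.6 and 17.6 times lower, with edgeR adjusted p of 5.6e-05, 4.71e-05 and 5.81e-05.

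Cd74, the invariant chain, was the most abundant of the 10. It stood at 49871, 49499.8 and 50763 CPM in control and 4089.9, 5334 and 4681 CPM in rhabdomyolysis macrophages. The control libraries were close to each other and the groups did not overlap. Free RNA could account for a mean of 14.5% of the Cd74 counts in rhabdomyolysis and 4.64% in control. For Cd74 the fitted values follow. Its log2 change was -3.34 ± 0.16, or 10.1 times lower, with an edgeR adjusted p of 3e-05.

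Ciita, the transactivator, had the largest fall of the 10. It stood at 177, 224 and 226 CPM in control macrophages and at 1.24, 9.61 and 2.76 CPM after rhabdomyolysis, which are 1062, 1155 and 945 UMIs against 3, 28 and 8. The fitted log2 change was -5.41 ± 0.49, or 42.4 times lower, with an edgeR adjusted p of 0.000183. Over the summed UMIs the ratio was 43.5, with an exact 95% interval of 31.8 to 61.3 that covers counting error only. Free RNA of the droplets could account for 100%, 27.2% and 55.8% of the few Ciita counts in the 3 rhabdomyolysis libraries, against 2.5% to 4.1% in control. Without rhabdomyolysis replicate 2, the library with most of these counts, the log2 change was -6.51.

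The H2-DM genes fell less. H2-DMa stood at 821, 880.1 and 946 CPM in control and 312, 259.8 and 339 CPM in rhabdomyolysis macrophages, a log2 change of -1.47 ± 0.17 (edgeR adjusted p 0.000576). H2-DMb1 stood at 1294, 1259 and 1382 CPM in control and 231, 210.4 and 205 CPM in rhabdomyolysis, a log2 change of -2.53 ± 0.17 (adjusted p 5.81e-05). For both genes all control libraries lay above all rhabdomyolysis libraries, with 2.76 and 5.78 times lower levels. H2-DMb2, the second beta gene, was near the floor in this gate at 8.85, 9.88 and 10.3 CPM in control and 5.38, 3.09 and 6.90 CPM in rhabdomyolysis. Its log2 change was -0.84 ± 0.30 with an edgeR adjusted p of 0.055, so it was not called. Free RNA could account for 41.5% to 100% of its counts. For H2-DMa and H2-DMb1 the mean share was 8.69% and 14.2% in rhabdomyolysis, against 5.21% and 5.86% in control. H2-DMb1 and H2-DMb2 are close copies, and reads they share may have been split or dropped in the authors' counting, so their levels are uncertain.

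Both H2-O genes were low in macrophages and fell. H2-Oa stood at 30.9, 30.8 and 25.1 CPM in control and 5.38, 6.86 and 4.83 CPM in rhabdomyolysis, a log2 change of -2.26 ± 0.22 (edgeR adjusted p 0.000241). H2-Ob stood at 25.9, 30.2 and 22.0 CPM in control and 6.21, 3.78 and 5.52 CPM in rhabdomyolysis, a log2 change of -2.26 ± 0.25 (adjusted p 0.000402). The rhabdomyolysis sums behind these levels hold 11 to 20 UMIs each. Free RNA could account for a mean of 43.9% of the H2-Oa and 24.4% of the H2-Ob counts in rhabdomyolysis, against 25.6% and 21.6% in control.

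**Figure D1:**
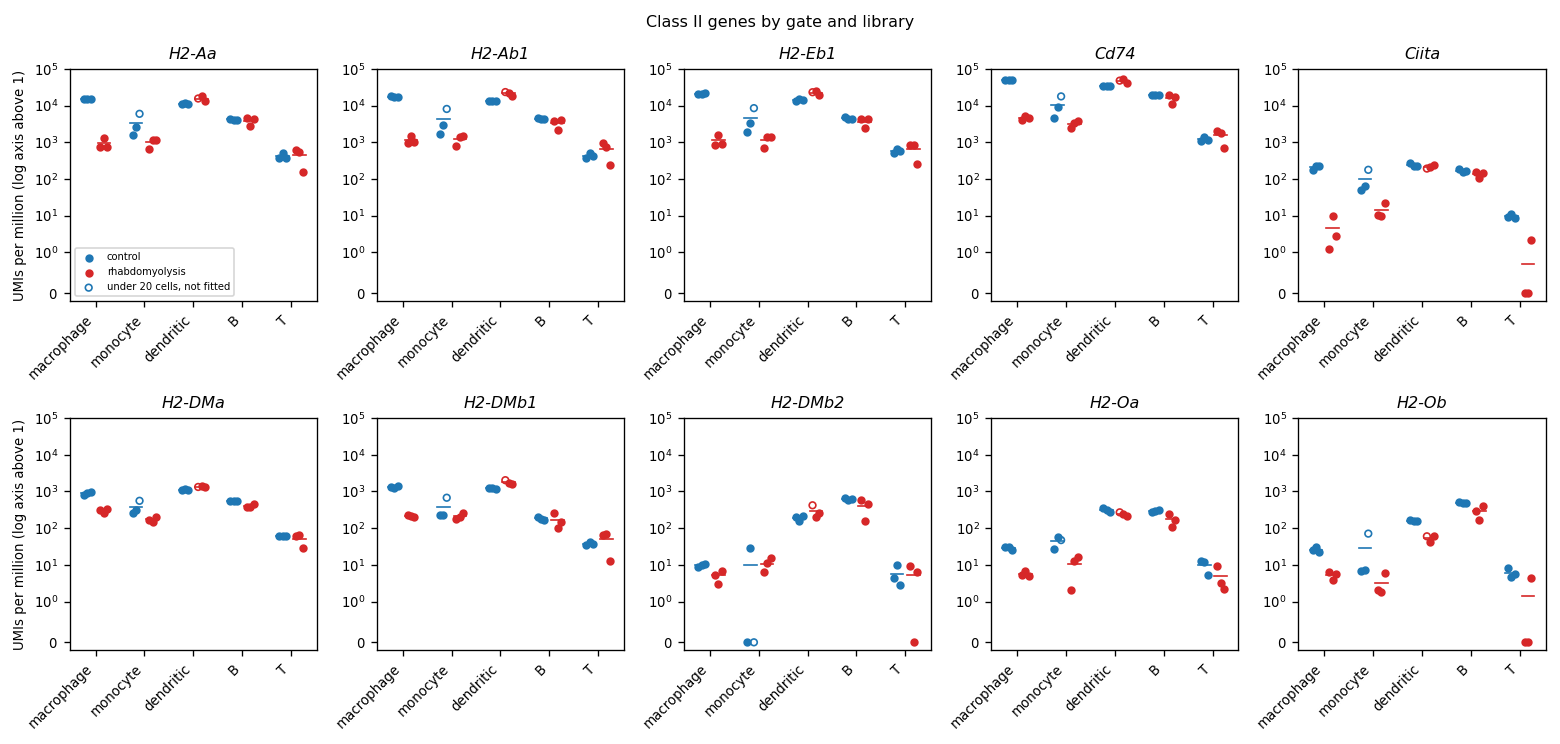
Level of each of the 10 genes in CPM (log axis above 1), for 5 gates. Each point is a library, open points had under 20 cells and were not fitted, and bars are means over all 3 libraries. In the macrophage gate the control points sit above the rhabdomyolysis points for every gene, while in the dendritic gate the H2-Aa, H2-Ab1, H2-Eb1 and Cd74 points of rhabdomyolysis sit above control.

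The fall was seen in the number of positive cells and in the UMIs per cell. Macrophages were thinned to 1000 UMIs so that depth was equal, which left out 38, 62 and 34 shallower control cells and 12, 22 and 14 rhabdomyolysis cells. Among the thinned cells, 99.6%, 99.7% and 100% of control cells had an H2-Aa UMI, against 37.1%, 37.8% and 32.1% of rhabdomyolysis cells. Without thinning, the control libraries had 99.9%, 99.7% and 100% of such cells and the rhabdomyolysis libraries 70.5%, 69.5% and 65.6%. Rhabdomyolysis macrophages were deeper, with medians of 5608, 4701 and 6702 UMIs against 3550.5, 3603 and 4106. Ciita was detected in 17.4%, 18.01% and 20.8% of thinned control cells, and in 0%, 0.771% and 0.845% of thinned rhabdomyolysis cells. The 0 of 361 cells allows a share of up to 0.831%. Without thinning, 44.0%, 49.7% and 55.1% of control and 0.804%, 2.96% and 1.90% of rhabdomyolysis macrophages had a Ciita UMI. The two-sided exact permutation test over libraries gave p = 0.1 for both thinned shares, the smallest that 3 against 3 libraries allow.

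Shares for H2-DMa and H2-DMb1 were lower than for H2-Aa in both groups. H2-DMa had a UMI in 54.0%, 56.6% and 56.6% of thinned control cells and in 26.6%, 21.4% and 26.8% of thinned rhabdomyolysis cells. H2-DMb1 had a UMI in 69.8%, 67.6% and 71.6% of thinned control and 22.4%, 13.9% and 17.2% of thinned rhabdomyolysis cells. Both groups of libraries stayed apart for each gene. For H2-DMb2, H2-Oa and H2-Ob at most 3.14% of thinned macrophages of any library had a UMI, which is too few to compare shares.

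**Figure D2:**
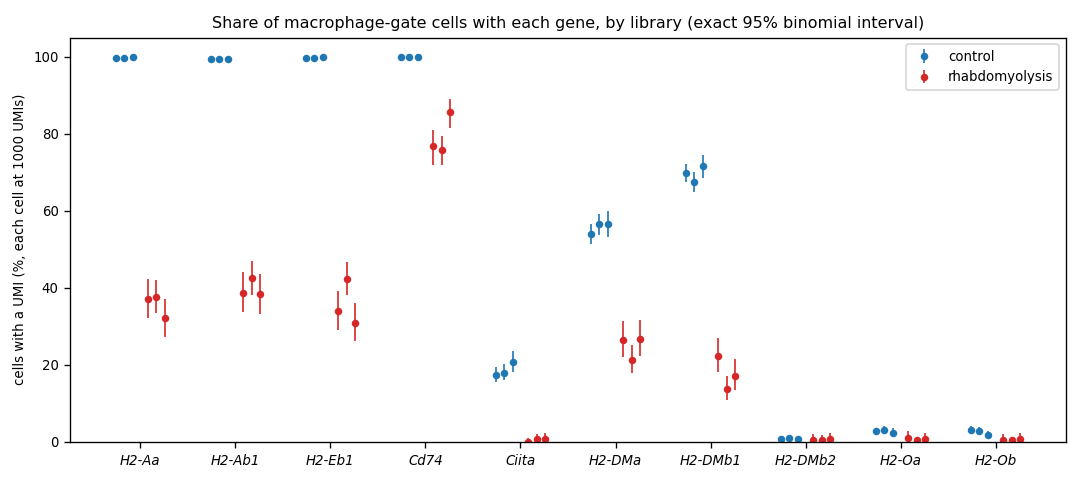
Share of macrophage-gate cells with a UMI of each gene, with each cell thinned to 1000 UMIs. Points are libraries and bars the exact 95% binomial interval, which covers counting error only. H2-Aa falls from 99.6% or more in control to 37.8% or less in rhabdomyolysis, and Ciita from 17.4% or more to 0.845% or less.

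Cell by cell, the 4 abundant genes H2-Aa, H2-Ab1, H2-Eb1 and Cd74 were added up per 1000 UMIs. The median control macrophage held 103, 103 and 104 of them, and the median rhabdomyolysis macrophage 3, 3 and 4. At least 20 of them were found in 98.9%, 98.8% and 99.9% of control and 14.7%, 11.8% and 13.2% of rhabdomyolysis macrophages. None of the control macrophages lacked all 4, against 16.3%, 14.3% and 12.1% of the rhabdomyolysis macrophages. Most rhabdomyolysis macrophages thus held few class II UMIs, and a minority held many. The cells in which the 4 genes made up 2% or more of UMIs numbered 52, 63 and 47 in the rhabdomyolysis libraries and held 49.5%, 63.9% and 47.6% of the UMIs of these genes in the gate.

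**Figure D3:**
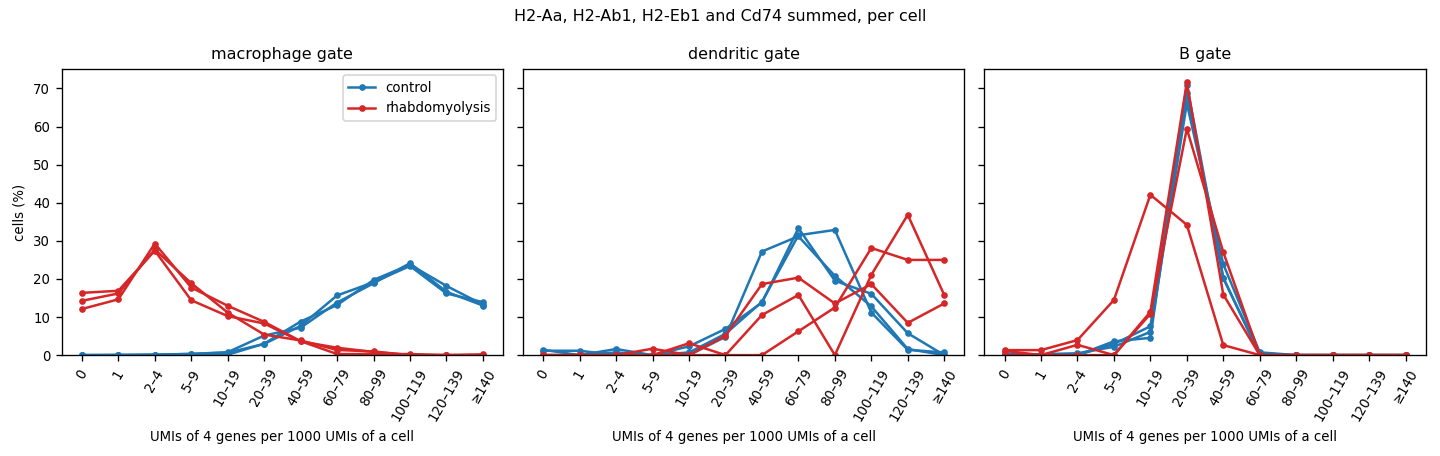
Share of cells (%) by the summed UMIs of H2-Aa, H2-Ab1, H2-Eb1 and Cd74 per 1000 UMIs of the cell, in bins of unequal width, with 1 line per library. Control macrophages peak at 100 to 119 and rhabdomyolysis macrophages at 2 to 4, while the B gate shows 1 rhabdomyolysis library below the others.

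Macrophages with a UMI of Ccr2, a chemokine receptor of cells derived from monocytes, were 27.3% to 36.4% of the control gate and 6.97% to 15.2% of the rhabdomyolysis gate. H2-Aa in them stood at 14846 to 15154 CPM in control and 1269 to 4222 CPM in rhabdomyolysis. In macrophages without a Ccr2 UMI it stood at 14823 to 15527 CPM and 641 to 958 CPM. Control macrophages had close levels with and without Ccr2, and rhabdomyolysis macrophages were low in both. In the Ccr2-positive cells the fall was smaller, with log2 changes of -2.62 for H2-Aa, -2.27 for Cd74 and -4.87 for Ciita, and the same 9 of 10 genes were called with and without a Ccr2 UMI. This division of the gate was chosen after seeing the data.

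Macrophages with and without a Ciita UMI were also set side by side, with no test since Ciita is itself one of the genes. In control, cells with a Ciita UMI held 1049.9, 1031 and 1066 UMIs of the 4 abundant genes per 10000, and cells without one 1007, 1007 and 1019. Among rhabdomyolysis macrophages, the 3, 16 and 7 cells with a Ciita UMI held 172, 509 and 275 per 10000, and the others 65.2, 80.6 and 68.9. In control the 2 kinds of cell were nearly alike, and in rhabdomyolysis the rare cells with a Ciita UMI were the higher ones in each library. These rhabdomyolysis cells held 3, 28 and 8 Ciita UMIs in all. Free RNA could account for 61.0% ± 36.7% of them (mean and SD, n = 3), so such a UMI need not come from the cell itself.

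Because the genes fell by different amounts, their proportions changed. Per 100 UMIs of H2-Aa, macrophages held 5.84 ± 0.31 (SD, n = 3) UMIs of H2-DMa in control and 36.0 ± 13.8 in rhabdomyolysis, and 332 ± 4.15 against 532 ± 107 UMIs of Cd74. Ciita moved the other way, from 13.8 ± 1.62 to 4.28 ± 2.93 UMIs per 1000 of H2-Aa. H2-Ab1 per 100 of H2-Aa was 116 ± 3.37 and 125 ± 9.97. A two-sided exact permutation test gave p = 0.1 for the first 3 ratios, the lowest it can give here, and 0.3 for the last. The 2 chains of I-A thus stayed near their control proportion within the spread between libraries, while H2-DMa and Cd74 fell less than H2-Aa and Ciita fell more.

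**Figure D4:**
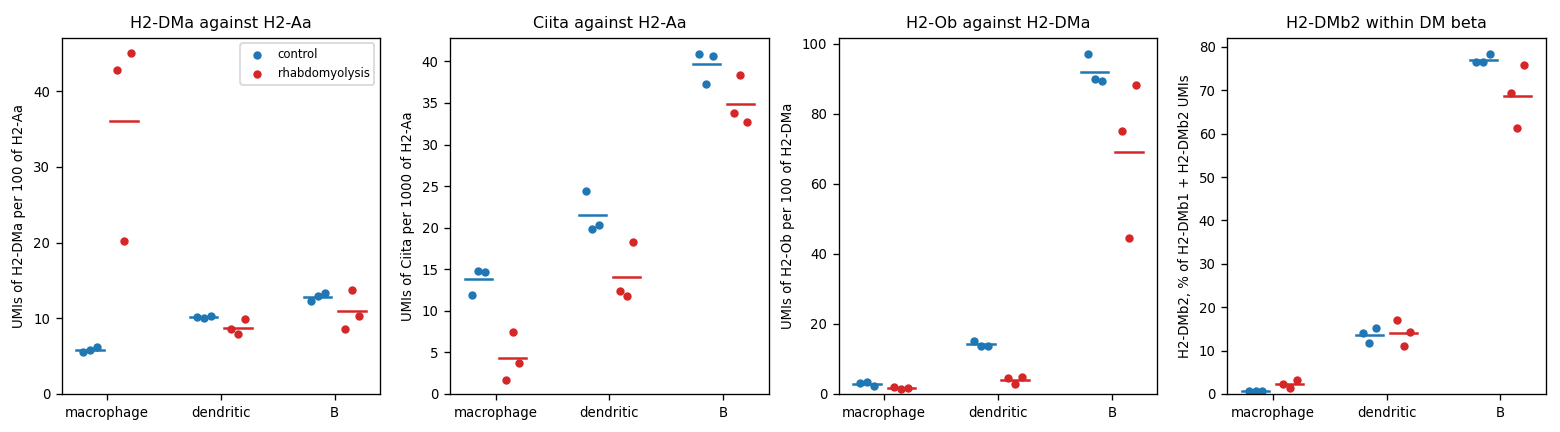
Ratios of UMIs between genes within each library (points) and their mean (bars), in the macrophage, dendritic and B gates. The H2-DMa to H2-Aa ratio rises in rhabdomyolysis macrophages, H2-Ob per 100 H2-DMa falls in the dendritic gate, and H2-DMb2 makes up most of the DM beta UMIs in the B gate but not in the other 2 gates.

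Dendritic cells showed the opposite direction for the abundant genes. The gate (Flt3, Xcr1, Cd209a, Clec10a and others) held 125, 144 and 90 control and 19, 32 and 59 rhabdomyolysis cells, and rhabdomyolysis replicate 1 was left out of the fit for having under 20 cells. In edgeR, 5 of the 10 genes rose and 1 fell, while 6.06% of all 6991 genes tested rose and 4.98% fell. The median log2 change of the 10 was 0.42, against -0.02 over all genes tested.

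H2-Aa stood at 10840.4, 11443 and 10803 CPM in control dendritic cells and at 15517, 17907 and 12937 CPM in rhabdomyolysis, replicate 1 included. Cd74 stood at 33408, 34192 and 34034 CPM in control and 47591, 51317 and 41596 CPM in rhabdomyolysis. H2-DMb1 stood at 1216, 1212 and 1175 CPM in control and 2022, 1671 and 1607 CPM in rhabdomyolysis. All rhabdomyolysis libraries lay above all control libraries for each of these genes. Log2 changes were 0.52 ± 0.12 for H2-Aa, 0.64 ± 0.09 for H2-Ab1, 0.67 ± 0.11 for H2-Eb1, 0.49 ± 0.08 for Cd74 and 0.48 ± 0.10 for H2-DMb1, with edgeR adjusted p of 0.016, 0.000862, 0.00265, 0.00312 and 0.0109.

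Ciita did not follow the chains in this gate. It stood at 265, 227 and 219.8 CPM in control and 191, 209.9 and 236 CPM in rhabdomyolysis dendritic cells, so the groups overlapped, and its log2 change was -0.06 ± 0.16 with an edgeR adjusted p of 0.876. H2-DMa (0.29 ± 0.11, adjusted p 0.114), H2-DMb2 (0.36 ± 0.18, 0.254) and H2-Oa (-0.40 ± 0.16, 0.153) were not called either. H2-Ob, the H2-O beta chain, stood at 167, 159 and 153 CPM in control and 59.8, 40.8 and 62.5 CPM in rhabdomyolysis, and fell by 1.54 ± 0.21 on the log2 scale with an adjusted p of 0.000979. H2-Ob per 100 UMIs of H2-DMa was 14.3 ± 0.79 in control and 4.10 ± 1.06 in rhabdomyolysis (SD, n = 3, exact permutation p = 0.1). H2-DMa and H2-Ob, whose products act against each other, thus stood in a lower H2-Ob proportion in every rhabdomyolysis library.

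The mix of dendritic cells differed as well. Cells with a UMI of Xcr1 or Clec9a, markers of type 1 conventional dendritic cells, were 26.7% to 31.2% of the control and 9.38% to 25.4% of the rhabdomyolysis gate. Cells with a UMI of Fscn1 or Ccl22, markers of migratory dendritic cells, were 5.56% to 6.67% and 10.5% to 28.1%. The dendritic markers themselves summed to 2289.8 to 2571 CPM in control and 711 to 1451 CPM in rhabdomyolysis, and the 8 macrophage markers to 337 to 395 and 294 to 892 CPM. Among dendritic cells with a Cd209a UMI, 7 genes were called, H2-DMb2 added, and the direction was the same. That fit was chosen after seeing the data and asked for only 10 cells per library. It thus took in rhabdomyolysis replicate 1, with 13 such cells, and differs from the main fit in libraries as well as cells. The part of the other differences in the result was not tested. Without control replicate 1 only 2 genes were called, without control replicate 2 only 3, and H2-Ab1 and H2-Ob were called in both cases.

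**Figure D5:**
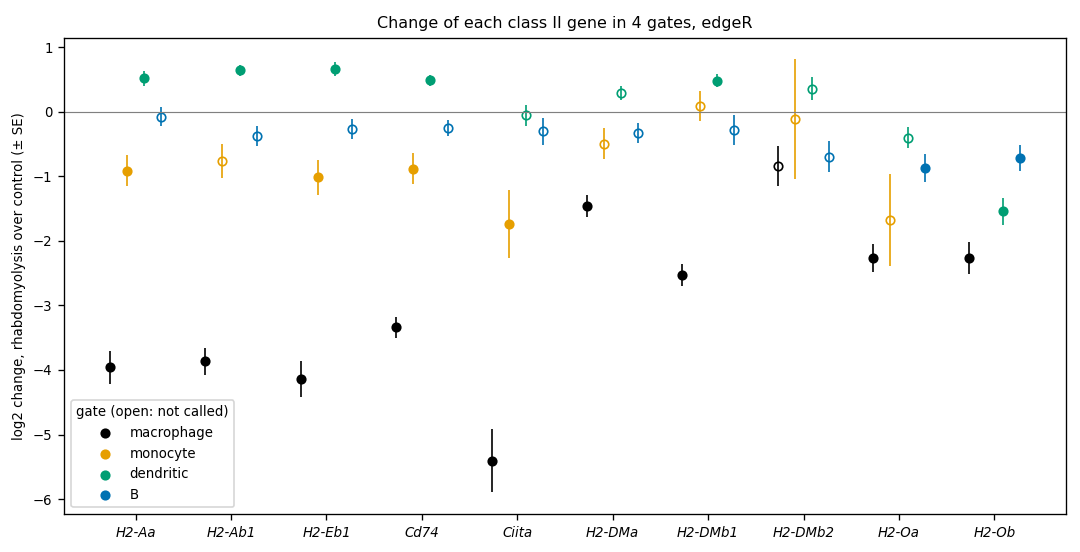
Log2 change of each gene, rhabdomyolysis over control, with its SE from edgeR, in the macrophage, monocyte, dendritic and B gates. Filled points had an adjusted p under 0.05. The macrophage points lie between -5.41 and -0.84, and the dendritic points of H2-Aa, H2-Ab1, H2-Eb1 and Cd74 between 0.49 and 0.67.

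In B cells the displayed chains did not pass the test, and only the H2-O genes were called as lower. The gate (Cd79a, Cd79b, Ms4a1 and others) held 415, 242 and 227 control and 38, 77 and 90 rhabdomyolysis cells. In edgeR, 2 of the 10 genes were called as lower and none as higher, while 4.69% of all 4907 genes tested were called and 2.47% fell. The median log2 change of the 10 was -0.32, against 0.00048 over all genes tested. An unadjusted edgeR p under 0.05 was found for 4 of the 10, so no call does not mean no fall. H2-Aa stood at 4418, 4147 and 3987 CPM in control and 4436, 2771 and 4396 CPM in rhabdomyolysis, a log2 change of -0.07 ± 0.14 (adjusted p 0.86). Rhabdomyolysis replicate 2 was low, and the other libraries of both groups overlapped. H2-Ab1 stood at 4689, 4339 and 4248 CPM in control and 3769, 2209 and 3978 CPM in rhabdomyolysis. Its log2 change was -0.38 ± 0.15 (edgeR adjusted p 0.187). Ciita stood at 181, 155 and 162 CPM in control and 149.7, 106 and 144 CPM in rhabdomyolysis, with a log2 change of -0.30 ± 0.21 (adjusted p 0.497).

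H2-O is known to be made mainly by B cells, and H2-Ob was above its dendritic level in every library. H2-Oa was near its dendritic level in control. In rhabdomyolysis it was below that level, at 245, 106 and 166 CPM against 269, 236 and 220 CPM in dendritic cells. H2-Oa stood at 278, 300.3 and 319 CPM in control and 245, 106 and 166 CPM in rhabdomyolysis B cells. H2-Ob stood at 525, 480.2 and 476 CPM in control and 286, 169.9 and 399.6 CPM in rhabdomyolysis. All control libraries lay above all rhabdomyolysis libraries for both genes, with replicate 2 the lowest. Log2 changes were -0.87 ± 0.21 for H2-Oa and -0.72 ± 0.21 for H2-Ob, with edgeR adjusted p of 0.015 and 0.0427. Without rhabdomyolysis replicate 2, and without each control library in turn, neither was called, and without rhabdomyolysis replicate 1 only H2-Oa was. The fit with a replicate block called 0 of the 10 genes, and DESeq2 and a stricter gate called 1 each, H2-Oa.

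Rhabdomyolysis replicate 2 was low in the B gate beyond the class II genes. At least 20 UMIs of the 4 abundant genes per 1000 were found in 36.8% of its B cells, against 86.5% and 87.5% in the other 2 rhabdomyolysis libraries and 89.5% to 91.4% in control. Its 9 B-cell markers summed to 7602 CPM, against 10449 and 9824 CPM in the other 2 and 12136 to 12613 CPM in control. The part of these differences in the result was not tested.

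The beta gene of H2-DM differed by cell type. H2-DMb2 made up 76.4% to 78.3% of the H2-DMb1 and H2-DMb2 UMIs in control B cells, 11.7% to 15.3% in control dendritic cells and 0.679% to 0.778% in control macrophages. In rhabdomyolysis these shares were 61.2% to 75.8%, 11.02% to 17.2% and 1.45% to 3.26%. The order B, dendritic, macrophage held in every library.

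Most monocytes held few class II UMIs in both groups, but the control sums varied widely. The gate (Ly6c2, Ccr2, Vcan, Plac8, Ace and others) held 26, 22 and 15 control and 115, 175 and 250 rhabdomyolysis cells, and control replicate 3 was left out of the fit for having under 20 cells. In edgeR, 4 of 9 genes tested fell, H2-Aa, H2-Eb1, Cd74 and Ciita, and none rose, while 5.09% of all 6976 genes tested fell. H2-Aa stood at 1607, 2630.3 and, in the library left out, 5939.6 CPM in control and at 645, 1171 and 1147 CPM in rhabdomyolysis. Ciita stood at 48.5, 65.8 and 177 CPM in control and 10.4, 10.1 and 21.6 CPM in rhabdomyolysis. Log2 changes were -0.91 ± 0.25 for H2-Aa and -1.74 ± 0.53 for Ciita, with adjusted p of 0.0261 and 0.0467.

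These monocyte values rest on few cells. The cells in which the 4 abundant genes made up 2% or more of UMIs were 3, 5 and 5 per control library and 9, 12 and 29 per rhabdomyolysis library and held 83.2% to 99.1% and 89.4% to 94.5% of these genes' UMIs, and the median monocyte held 0 to 1 UMI of them per 1000. The control gate also differed in make-up: cells with an Ace UMI, a marker of nonclassical monocytes, were 53.3% to 73.1% of control and 10.9% to 22.8% of rhabdomyolysis monocytes, and the dendritic markers summed to 567 CPM in control replicate 3 against 43.8 to 73.1 CPM in the other libraries. No gene was called without rhabdomyolysis replicate 1 or without the top 5% of cells by UMIs. Without control replicate 2 none was called either, but that fit has 1 control library, of 26 cells, assumed to vary like the other group.

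T cells and NK cells, which in the mouse make no class II, show the background. H2-Aa stood at 365, 499 and 378 CPM in control and 627, 551 and 152 CPM in rhabdomyolysis T cells. In NK cells it stood at 0 to 350.4 CPM, with means of 184 CPM in control and 7.48 CPM in rhabdomyolysis. In the free RNA it made up 6165, 7178 and 7272 CPM in control and 1459, 1507 and 1199 CPM in rhabdomyolysis, so the background was not equal between the groups. At least 20 UMIs of the 4 abundant genes per 1000 were found in 0.870% to 1.67% of T cells. In the rhabdomyolysis libraries 1 T cell each, of 11655, 17121 and 8915 UMIs against gate medians of 2241, 3182 and 3315 UMIs, held 97.7%, 97.4% and 89.8% of the UMIs of these genes. In edgeR, 0 of 8 genes tested were called, 2 had an unadjusted p under 0.05, and DESeq2 also called 0, while 10.4% of all 7998 genes tested were called. Without rhabdomyolysis replicate 3, 5 genes were called as higher. At 1000 UMIs per cell, 91.3% to 94.4% of rhabdomyolysis T cells and 12.1% to 16.3% of rhabdomyolysis macrophages had no UMI of the 4 genes. In control these shares were 66.7% to 72.5% of T cells and 0% of macrophages.

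The changes in macrophages differed from those in the other gates of the same libraries. In control, H2-Aa was 3.36, 3.63 and 3.86 times higher in macrophages than in B cells, and in rhabdomyolysis the ratio was 0.164, 0.465 and 0.171. Against dendritic cells the ratio went from 1.37, 1.32 and 1.42 to 0.047, 0.072 and 0.0582. Macrophages thus moved from the highest of these 3 gates to the lowest in every library. In the edgeR interaction with the library as a block, 9 of 10 genes had a lower change in macrophages than in B cells, 9 a lower change than in dendritic cells, and 7 a lower change than in monocytes, and none had a higher one. Of all 9611 genes tested against B cells, 4.05% had a lower and 13.1% a higher change in macrophages. The shares were 3.74% and 7.64% of 9990 genes against dendritic cells, and 0.873% and 0.615% of 10078 genes against monocytes, where 1.49% were called in either direction.

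The difference was largest for Ciita and the chains. Against B cells it was -4.82 ± 0.37 for Ciita and -3.68 ± 0.21 for H2-Aa on the log2 scale, and against dendritic cells -4.99 ± 0.37 and -4.37 ± 0.16. For H2-DMa it was -0.92 ± 0.24 and -1.79 ± 0.20. H2-DMb2 was the gene without a call against B cells (0.08 ± 0.38, adjusted p 0.944), and H2-Ob the gene without a call against dendritic cells (-0.82 ± 0.36, adjusted p 0.159). Called genes had edgeR adjusted p of at most 0.0026 against B cells, 0.0166 against dendritic cells and 0.041 against monocytes. The fit against B cells drew the spread of single genes almost wholly from all genes (402 prior degrees of freedom), so its smallest p-values say little more than that.

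Over all called cells of a library, gated or not, the same genes were lower. H2-Aa stood at 8979.7, 9615 and 9000.2 CPM in control and 1320.4, 2579.7 and 1946 CPM in rhabdomyolysis, and Ciita at 142, 165 and 154 CPM against 12.7, 23.5 and 30.5 CPM. The groups did not overlap. Shares of macrophages, monocytes and other cells differ between the groups, so these sums mix both.

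Of 48 further genes of the class II pathway, 47 are in the matrices and 43 were tested in macrophages. Of these, 11 fell and 6 rose, while 18.7% of all genes tested fell and 18.9% rose. The median log2 change was -0.08, against -0.04 over all genes. Regulators of class II transcription leaned down, with 7 of 20 tested falling and 1 rising. Among proteases and peptide loading genes 2 of 9 fell and 3 rose, among surface turnover genes 2 of 6 fell and 1 rose, and none of 5 costimulatory genes was called.

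Rfx5, a subunit of the RFX complex that binds the X box, stood at 8.85, 6.39 and 6.22 CPM in control and 1.24, 1.37 and 2.07 CPM in rhabdomyolysis macrophages, with a log2 change of -2.10 ± 0.35 (edgeR adjusted p 0.00245). These levels rest on 53, 33 and 26 UMIs in control and only 3, 4 and 6 in rhabdomyolysis. The ratio of the summed counts was 4.62, with an exact 95% interval of 2.60 to 8.95 that covers counting error only. Irf4, a transcription factor of the interferon regulatory family, gave 36, 34 and 14 UMIs in control and 1, 0 and 0 in rhabdomyolysis, an adjusted p of 0.00165 and a ratio of 45.1 with an exact 95% interval of 7.87 to 1801. Cst3, which encodes the protease inhibitor cystatin C, stood at 10208, 9721 and 9225 CPM in control and 3700.5, 2295 and 3334 CPM in rhabdomyolysis, with a log2 change of -1.56 ± 0.20. These 3 had the largest falls of the list and were named for that, so the gap between their groups is not a separate result.

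Ctsl, the endosomal protease cathepsin L, stood at 144, 147 and 119.6 CPM in control and 694, 799 and 314 CPM in rhabdomyolysis macrophages, with a log2 change of 2.23 ± 0.33 (edgeR adjusted p 0.00155). Mif, a cytokine that binds the Cd74 protein at the cell surface, rose by 1.72 ± 0.28 on the log2 scale. Ctsd, the protease cathepsin D, rose by 1.34 ± 0.19. These 3 had the largest rises of the list. The proteases did not all move 1 way: Ctsb, cathepsin B, had a log2 change of -0.49 ± 0.16 (edgeR adjusted p 0.0363). The values are sums over the gate, so whether cells with more protease UMIs held fewer class II UMIs was not tested.

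In the other gates the pathway list split differently. In dendritic cells 7 of 37 genes tested rose, among them 4 of 9 proteases and peptide loading genes, and 1 fell. In B cells 4 of 36 fell and 1 rose, in monocytes 3 of 35 fell and 9 rose, and in T cells 4 of 37 fell and 10 rose. The share of all genes tested that fell and rose was 4.98% and 6.06% in dendritic cells, 2.47% and 2.22% in B cells, 5.09% and 6.71% in monocytes, and 4.23% and 6.21% in T cells.

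Genes with a like pattern were ranked by the correlation of log2 CPM with the mean of H2-Aa, H2-Ab1 and H2-Eb1 over 30 points, 6 libraries in each of 5 gates, among 2560 genes with a mean of at least 50 CPM. The points share libraries and gates, so r is a description. Of the 10 genes, Cd74 (r = 0.98), H2-DMa (0.94), H2-DMb1 (0.93) and Ciita (0.89) followed the 3 chains themselves, with H2-Oa at 0.76, H2-Ob at 0.64 and H2-DMb2 at 0.59. The 5 other genes with the highest r were Prcp (0.86), Fgd2 (0.84), Dapp1 (0.83), Ier5 (0.82) and Ly86 (0.79). Fgd2 had mean levels of 154 CPM in control and 30.6 CPM in rhabdomyolysis macrophages, and Ly86, whose product pairs with the receptor RP105, 1287 and 372 CPM. Unlike H2-Aa, Fgd2 was also lower in rhabdomyolysis dendritic cells, at 44.2 against 111 CPM.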

How the data were processed

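For 6 libraries the authors deposited raw UMI counts of every gene in every barcode, with no scaling and no cell filter. Per the file headers they were made with Cell Ranger 4, and per the submitters' processing notes against mm10. The 6 antibody tags of the matrices were not used. The 10 genes, the gene lists and the tests were chosen with earlier results of these data known.

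Cells had at least 500 UMIs, 200 genes, at most 15% mitochondrial UMIs, at least 0.1% Malat1 UMIs, and a profile unlike the free RNA of barcodes with 100 or fewer UMIs (Monte Carlo test, 10000 draws, Benjamini-Hochberg (BH) adjusted p at most 0.001). Gates counted distinct marker genes: at least 4 for B, 3 for T, NK and monocytes, 2 for dendritic cells, and, for macrophages, 3 with at least 0.8% of UMIs. These limits were set after marker counts were seen. Cells with over 2 markers of another B, T, NK or non-gated lineage were left out, as were cells of the other gates with 0.4% or more macrophage UMIs. The B, T and NK gates were not screened for monocyte or dendritic markers, and the macrophage gate allowed up to 2 of each. No other doublet caller was used, so doublets within a gate and between some lineages remain. Between 66 and 159 cells per library lay near the macrophage limit. Free RNA in a gate was estimated from markers the gate should lack, 9.65% to 17.3% of UMIs in macrophages.

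Counts were summed per gate and library, with at least 20 cells, and tested with edgeR 4.0.16 (quasi-likelihood, TMM scaling, filterByExpr, BH over all genes tested, called under 0.05) in R 4.3.3. SE is the log2 change over the square root of F. CPM are UMIs per 1000000 of the gate. Shares of cells used cells thinned to 1000 UMIs, exact 95% binomial intervals, a limit of 3 counts for a count of 0, and the exact permutation test. Alternatives included DESeq2 1.42.0, other scaling, filters and gates, free RNA subtraction, and each library left out. Some alternatives for monocytes and dendritic cells lowered the limit to 10 cells per library. On simulated counts, changes of 8-fold were recovered for 99.0% of changed genes in the macrophage comparison of 9846 genes and 88.0% in the monocyte comparison of 6976 genes. Changes of 2-fold were recovered for 29.9% and 14.3%. In the dendritic comparison of 6991 genes these shares were 93.4% and 43.6%. False calls made up 7.46% of calls for macrophages, 1.15% for monocytes, 10.6% for dendritic cells, 3.76% for B cells and 5.26% for T cells. Named pathway genes are the 3 largest called rises and falls in macrophages, and named genes of like pattern the 5 with the highest correlation. Promoter letters are from RefSeq windows, and the sequence of Cd74 was not used here.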

Additional observations from a re-analysis of the deposited data

Results flagged for a closer look

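The change between groups differed between macrophages and other gates of the same libraries in the edgeR interaction test, on the log2 scale as macrophage change minus the change in the other gate. Against B cells it was -3.68 for H2-Aa, -3.26 for H2-Ab1, -3.67 for H2-Eb1, -2.83 for Cd74, -4.82 for Ciita, -0.92 for H2-DMa, -2.10 for H2-DMb1, -1.21 for H2-Oa and -1.32 for H2-Ob. Against dendritic cells it was -4.37 for H2-Aa, -4.41 for H2-Ab1, -4.70 for H2-Eb1, -3.74 for Cd74, -4.99 for Ciita, -1.79 for H2-DMa, -3.07 for H2-DMb1, -1.24 for H2-DMb2 and -1.84 for H2-Oa. Against monocytes it was -3.27 for H2-Aa, -3.34 for H2-Ab1, -3.34 for H2-Eb1, -2.71 for Cd74, -3.79 for Ciita, -1.10 for H2-DMa and -2.76 for H2-DMb1. H2-Aa, H2-Ab1, H2-Eb1, Cd74 and H2-DMb1 were called in opposite directions in macrophages and dendritic cells. With 3 libraries a group, no library was tested as standing apart.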

How the results depend on the processing

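In macrophages 9 or 10 of the 10 genes were called under all 18 alternatives, with H2-Aa between -4.28 and -2.62 and Ciita between -6.51 and -4.87 (log2). Genes called against B cells, dendritic cells and monocytes numbered 7 to 9, 8 to 9 and 5 to 7. In monocytes, DESeq2 called 1 gene, free RNA subtraction left 2, leaving out the top 5% of cells by UMIs left 0, and leaving out a library gave 0 to 6. In dendritic cells leaving out a library gave 2 to 7 calls. In B cells DESeq2 and the stricter gate called 1, the replicate block 0, no filter 5, and leaving out a library gave 0 to 4. In T cells library totals without TMM called 1, no filter 2, free RNA subtraction 1, and leaving out a library gave 0 to 5. The replicate block changed no other count of these 10 genes by over 1.5 times. The groups share replicate numbers, but the labels give them no shared animal or day, and same-numbered macrophage sums correlated at 0.109, 0.186 and 0.0671, not all above 0.1, so the main fits have no block. Every library still correlated best with its own number in the macrophage, B and T gates (0.0169 to 0.0365 in B, 0.0125 to 0.0239 in T), a hint of pairing from the data, not the design. Where a left-out library leaves 1 in a group (monocyte control, dendritic rhabdomyolysis), it is assumed to vary like the other group.

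H2-DMb1 in monocytes turned to -0.11 with library totals, -0.069 with the replicate block, -0.64 with at least 10 cells per library (chosen after seeing the data), and spanned -0.11 to 0.17 without single libraries. H2-DMb2 there turned to 0.063 with no filter, and spanned -1.12 to 6.92 without single libraries. Ciita, dendritic gate, turned to 0.025 with the replicate block, and spanned -0.13 to 0.00991 without single libraries. H2-Aa in B cells spanned -0.26 to 0.077 without single libraries. In T cells, without single libraries, H2-Aa spanned -0.13 to 0.65, H2-Eb1 -0.094 to 0.70, H2-DMa -0.50 to 0.24 and H2-DMb1 -0.18 to 1.01. The H2-DMb2 difference turned to -0.19 against B cells with library totals and 0.30 against monocytes with free RNA subtracted, and without single libraries spanned -0.28 to 0.24 and -8.55 to 0.15. None of the values that changed sign was called, and the cause was not tested.

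The share of macrophages with H2-Aa was 99.3% in control and 26.1% in rhabdomyolysis at 500 UMIs, and 68.5% unthinned in rhabdomyolysis. For Ciita it was 10.2% in control at 500 UMIs, 49.6% unthinned, and 1.89% unthinned in rhabdomyolysis. Numbers of all genes called ranged from 1879 to 5380 in macrophages (3700 as reported), 292 to 1224 in monocytes (823), 298 to 1146 in dendritic cells (772), 85 to 365 in B cells (230) and 549 to 1167 in T cells (835). A stricter gate could not be fitted for monocytes and dendritic cells, which kept too few cells. Depth limits H2-DMb2, H2-Oa and H2-Ob in macrophages and all genes in monocytes.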
